A study of Homo sapiens with 22 samples.

Results

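The TAM receptor system, made up of the receptors AXL, TYRO3 and MERTK and the ligands GAS6 and PROS1, was followed through single-cell RNA sequencing of 2 human melanoma lines and through ATAC-seq of sorted cells. The 5 genes were taken by symbol from the gene tables, where they made up 5 of 33538 genes in the first experiment and 5 of 36601 in the other 2, and all 5 were detected in every experiment. The first experiment held untreated WM989 cells (clone A6-G3) grown out from a mixed and an EGFR/NGFR-high sort, loaded in 8 wells that form replicates r1 and r2, and the second held 1 library of untreated WM983B cells (clone E9-D5). In the third, cells of a single WM989 well per replicate were split over 4 plates and left untreated (Control) or kept for 5 days in 5 ng/mL TGFB1, in 4 µM LY2109761, a TGFB receptor inhibitor (TGFBRi), or in 2 µM GDC-0941, a PI3K inhibitor (PI3Ki), with 2 replicates each. The treatment labels call one set of these libraries Mix and the other Primed, and what that difference stands for was not settled. ATAC-seq, which reads open chromatin by transposase insertion, was done on untreated WM989 cells sorted as EGFR-high, NGFR-high, EGFR/NGFR-high or marker-negative, with 3 libraries per sort. The marker-negative libraries are labelled Mix, while the methods describe cells negative for both markers, so whether they were an unselected mixture was not settled, and they are called marker-negative here after the methods. Both lines carry BRAF V600E, and each is a repeatedly single-cell-bottlenecked clone, so that no result here covers more than 2 clones. The drug-susceptible and primed states are the deposited cluster assignments of the authors, primed being clusters 2, 8 and 9 in the first experiment, 0 and 2 in WM983B and 4 and 10 in the treatment experiment.

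TAM receptors are tyrosine kinases of the cell surface. GAS6 and PROS1 bridge them to phosphatidylserine exposed on dying cells and vesicles, through a vitamin K-dependent domain that binds the lipid. GAS6 can activate all members of the receptor family and PROS1 acts on TYRO3 and MERTK. The receptors are best known for the clearance of dying cells and for damping innate immune signalling in macrophages, and in melanoma high AXL with low MITF, the melanocyte lineage factor, is a known pattern of dedifferentiated, drug-tolerant cells.

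The tables held 12531 WM989 cells in the first experiment, 1449 WM983B cells and 40021 WM989 cells in the treatment experiment, with a median of 53571, 66668 and 16321 UMIs (unique molecule counts) per cell. Cell barcodes seen in more than 1 library numbered 19 in the first experiment and 194 in the treatment experiment, covering 38 and 388 cells. All 7 melanocyte and melanoma identity markers were detected in both states of all 3 experiments, and their summed level was 5453 CPM (drug-susceptible) against 272 CPM (primed) in the first experiment, where CPM is a gene's UMIs per 1000000 UMIs of the cells named. In primed cells of that experiment SOX10 was at 7.09 CPM and MITF at 45.7 CPM, against 130 and 313 CPM in drug-susceptible cells, while EGFR stood at 48.1 against 3.37 CPM. The states were less far apart in WM983B, where the identity sum was 2818 CPM (drug-susceptible) against 1784 CPM (primed). Primed WM983B cells had SOX10 at 192 against 208 CPM and EGFR at 3.13 against 2.21 CPM in drug-susceptible cells. Other genes were further apart there. The primed markers NGFR and NT5E were at 56.1 and 85.6 CPM in primed against 12.3 and 40.9 CPM in drug-susceptible cells. MITF was at 197 against 391.985 CPM. Of the primed identity sum 1039 CPM was S100B, while no identity marker exceeded 895 CPM (PMEL) in drug-susceptible cells. S100B was thus higher in primed cells and ran against the sum. In the treatment experiment primed SOX10 was at 39.6 against 140 CPM. Because TAM genes are also expressed by macrophages, stroma and vessels, markers of those cells were read as well. The defining leukocyte marker PTPRC stayed at or below 0.167 CPM and the endothelial marker CDH5 at or below 0.0237 CPM in both states of all 3 experiments. CSF1R (11.7 CPM in primed against 0.0584 CPM in drug-susceptible cells of the treatment experiment), PECAM1 (9.56 against 0.137 CPM) and PDGFRA (3.11 against 0.305 CPM) were higher in primed cells, as were the summed levels of the 5 leukocyte (52.0 against 37.6 CPM) and 3 endothelial markers (10.3 against 0.442 CPM), but not of the 3 fibroblast markers (17.0 against 27.4 CPM), which stood at 70.4 against 34.3 CPM in the first experiment. In that experiment PDGFRA was at 47.3 against 0.734 CPM, PECAM1 at 22.8 against 0.183 CPM and CSF1R at 3.21 against 0.034 CPM, and the leukocyte sum was 95.2 against 44.9 CPM (CD68 91.8 against 44.7 CPM) and the endothelial sum 25.3 against 0.498 CPM. The part of these markers in the state differences was not tested. Of the leukocyte sums of the treatment experiment 40.1 and 37.4 CPM were CD68, a lysosomal protein made by many cells, and CD14 and AIF1 stayed at or below 0.187 CPM in every experiment and state.

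The sequences below are shown because the open chromatin of AXL that differed between the sorts and could be tested lay at an internal start and in an intron, and because 1 MERTK region was found open in sorted marker-high cells and in no marker-negative library. AXL runs from chr19:41219223-41261766 on the + strand (hg38, GENCODE v44). The 250 bases before its gene start (chr19:41218973-41219222, + strand) and before an internal transcript start that lies inside the gene (chr19:41226505-41226754, + strand) come from RefSeq GRCh38.p14. The other 3 are the central 300 bases, read on the + strand, of the region at that internal start (chr19:41226191-41226490), of a region in an AXL intron (chr19:41222245-41222544) and of the MERTK intron region (chr2:111918491-111918790). Capitals mark, on either strand, TGANTCA (AP-1), GGAATG (TEAD), CATGTG (E-box) and GGGCGG (SP1).
AXL, bases before the gene start: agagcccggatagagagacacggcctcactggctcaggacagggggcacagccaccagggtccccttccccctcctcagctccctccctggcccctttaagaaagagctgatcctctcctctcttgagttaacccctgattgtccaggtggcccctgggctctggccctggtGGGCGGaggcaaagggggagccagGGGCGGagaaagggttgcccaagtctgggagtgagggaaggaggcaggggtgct
AXL, bases before the internal start: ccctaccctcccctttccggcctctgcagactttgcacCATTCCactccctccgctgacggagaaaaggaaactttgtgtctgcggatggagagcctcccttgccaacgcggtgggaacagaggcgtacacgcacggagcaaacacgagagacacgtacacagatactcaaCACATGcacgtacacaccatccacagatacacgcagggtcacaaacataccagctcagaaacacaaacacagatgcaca
AXL, centre of the region at the internal start: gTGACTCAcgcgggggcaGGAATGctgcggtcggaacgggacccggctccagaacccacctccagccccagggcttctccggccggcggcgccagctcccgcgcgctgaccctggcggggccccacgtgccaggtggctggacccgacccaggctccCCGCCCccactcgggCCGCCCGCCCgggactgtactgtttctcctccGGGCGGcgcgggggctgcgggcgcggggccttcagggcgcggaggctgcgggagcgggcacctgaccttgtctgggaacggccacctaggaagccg
AXL, centre of the intron region: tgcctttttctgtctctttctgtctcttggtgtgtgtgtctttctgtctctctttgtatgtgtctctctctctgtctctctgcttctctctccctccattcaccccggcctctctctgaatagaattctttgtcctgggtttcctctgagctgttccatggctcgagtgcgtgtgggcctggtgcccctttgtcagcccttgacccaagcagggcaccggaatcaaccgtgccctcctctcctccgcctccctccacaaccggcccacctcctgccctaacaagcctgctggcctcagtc
MERTK, centre of the marker-high region: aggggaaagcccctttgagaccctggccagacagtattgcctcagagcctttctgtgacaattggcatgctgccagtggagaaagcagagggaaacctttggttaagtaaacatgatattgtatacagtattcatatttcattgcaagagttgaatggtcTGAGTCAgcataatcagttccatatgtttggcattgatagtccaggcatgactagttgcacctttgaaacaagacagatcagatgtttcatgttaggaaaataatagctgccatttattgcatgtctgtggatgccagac
The gene start of AXL held 2 SP1 matches, the internal start 1 TEAD and 1 E-box match, and the region at the internal start 1 AP-1, 1 TEAD and 4 SP1 matches, of which a pair overlap each other. No searched motif was in the centre of the AXL intron region, and the MERTK region held 1 AP-1 match. Among 35116 promoter windows of 250 bases, 6.57% held the AP-1 letters, 11.9% TEAD, 9.42% the E-box and 42.6% SP1, and among the centres of 152013 accessible regions these shares were 20.2%, 20.4%, 21.6% and 12.2%. A match of this kind describes the letters and no bound factor.

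AXL was the member that separated the states most sharply in WM989. In the first experiment its level was 35.8 CPM in primed cluster 2 (95% exact Poisson interval 34.7 to 36.9), 32.8 CPM in cluster 8 (30.8 to 34.8) and 63.5 CPM in cluster 9 (61.2 to 65.7). In the 8 drug-susceptible clusters it ranged from 0.264 to 1.01 CPM. No drug-susceptible cluster came near a primed one, and clusters 2 and 8 had overlapping intervals. The 2843 primed cells pooled gave 42.3 CPM and the 9688 drug-susceptible cells 0.469 CPM, which is 90.1 times lower. Of the primed cells 63.0% had at least 1 AXL UMI (25.4% once every cell was thinned to 10000 UMIs), compared with 1.87% (thinned 0.409%) in the drug-susceptible state. None of these cell populations is known to lack AXL, so no background share is given. The state assignments were made by clustering the same counts, so this and the other differences between states are descriptions with no test, and Poisson intervals cover counting error only.

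The AXL level in primed cells differed between the replicates of the first experiment. It was 27.7, 23.1, 28.5 and 20.7 CPM in wells 1 to 4 of r1 and 62.6, 66.0, 48.9 and 42.6 CPM in wells 5 to 8 of r2. Every well of r2 was above every well of r1. In drug-susceptible cells AXL was also lower in each r1 well (0.113 to 0.436 CPM) than in each r2 well (0.679 to 4.76 CPM). The primed share was 56.9% to 79.7% in wells 1, 2, 5 and 6 and 6.85% to 9.42% in wells 3, 4, 7 and 8, a share that the sort of each well can set. The sort of single wells was not in the labels. Per the methods the cells of each sort were split over 2 wells, so wells were not used as replicates of a condition.

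TYRO3, a receptor that both ligands can engage, ran the other way in the first experiment. It was at 7.73, 11.7 and 10.5 CPM in primed clusters 2, 8 and 9 and at 15.8 to 21.2 CPM in the drug-susceptible clusters, with no overlap between the states. By state it was at 9.07 (primed) against 18.9 CPM, a ratio of 0.481, and the order held in all 8 wells (8.23 to 11.5 CPM in primed cells, 15.4 to 27.04 CPM in drug-susceptible cells). MERTK, the receptor best known in macrophages, was at 3.30 to 4.12 CPM in primed and 3.68 to 7.01 CPM in drug-susceptible clusters. Its ranges overlapped, because drug-susceptible cluster 4 was at 3.68 CPM, and its drug-susceptible level was 3.78 CPM in r1 and 8.41 CPM in r2.

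Of the ligands in the first experiment, GAS6 followed AXL in its difference between the states, and PROS1, pooled over replicates, did not. GAS6 was at 10.6, 8.32 and 11.5 CPM in primed clusters 2, 8 and 9 and at 0.544 to 1.003 CPM in drug-susceptible clusters. By state this was 10.5 against 0.818 CPM, a ratio of 12.8. The primed level of GAS6 was 10.5 CPM in r1 and 10.4 CPM in r2, so it did not show the replicate difference seen for AXL. PROS1 was at 14.6 to 20.6 CPM in primed clusters and 13.1 to 24.4 CPM in drug-susceptible clusters, fully overlapping, with a ratio of 1.081 between the states. That ratio pools replicates at different levels, since PROS1 over all cells was at 13.9 CPM in r1 and 21.8 CPM in r2. By well it was at 18.4, 17.3, 12.6 and 11.8 CPM in wells 1 to 4 of r1. Wells 5 to 8 of r2 had 24.5, 21.7, 20.5 and 22.1 CPM. Reads of PROS1 and TYRO3 can be shared with the near-identical copies PROS2P and TYRO3P, so the levels of those members are less certain, and GAS6 overlaps the antisense gene GAS6-AS1.

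**Figure D1:**
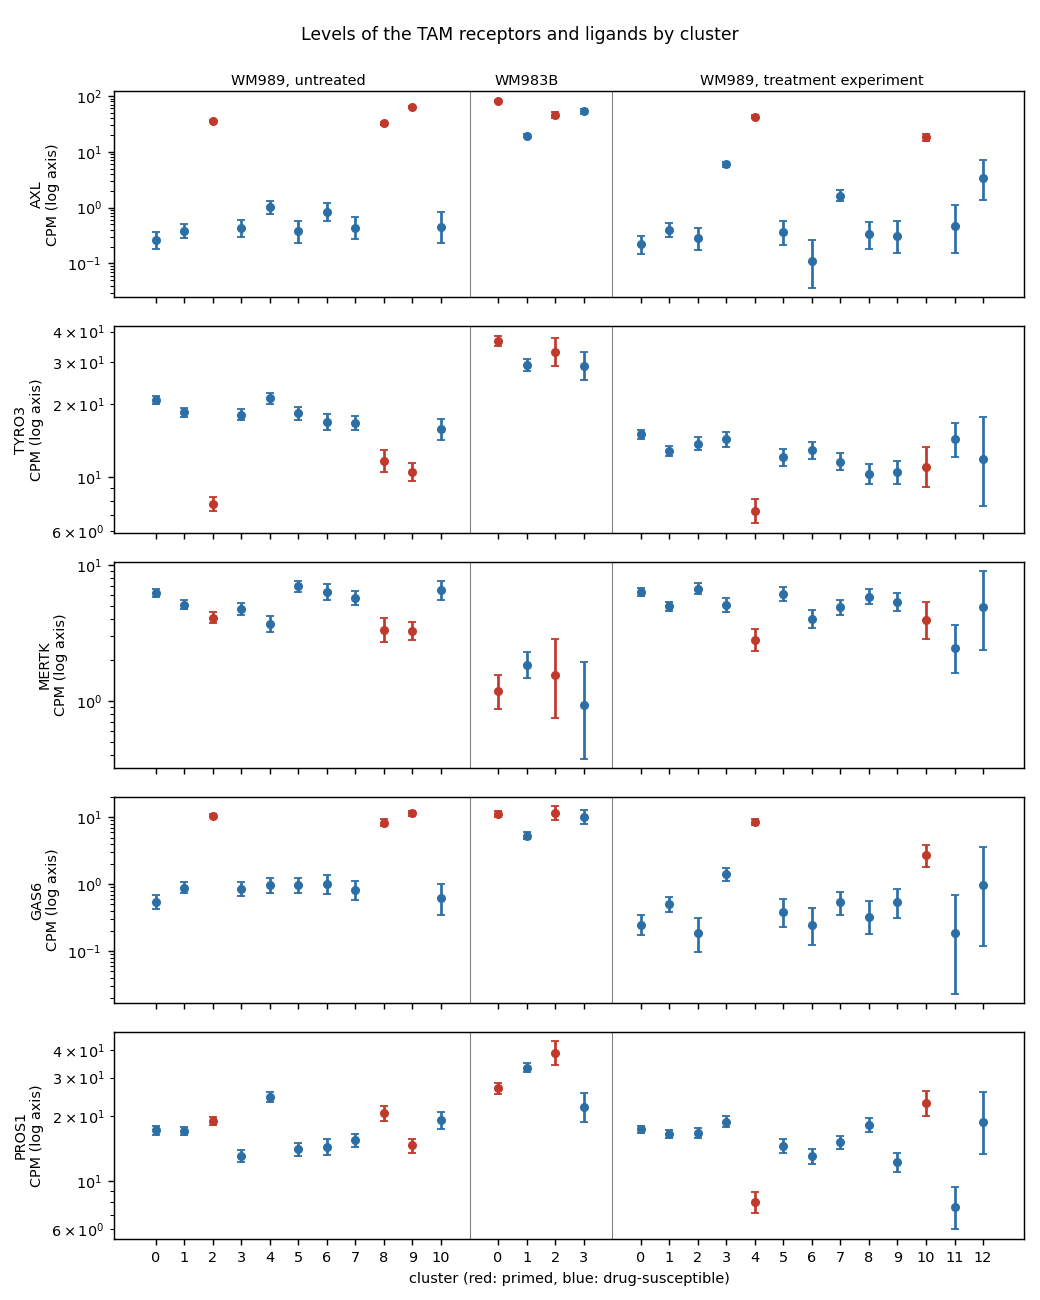
Level of each member (CPM, log axis) in each cluster of the 3 experiments, with 95% exact Poisson intervals; red points are primed and blue points drug-susceptible clusters. AXL and GAS6 are high in the red clusters of WM989, TYRO3 is low in those of the first experiment and in cluster 4 but not cluster 10 of the treatment experiment, and in WM983B drug-susceptible cluster 3 lies among the primed clusters for AXL.

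WM983B gave a shallower contrast on a higher AXL level. AXL was at 80.8 CPM in primed cluster 0, 45.6 CPM in primed cluster 2, 53.2 CPM in drug-susceptible cluster 3 and 19.5 CPM in drug-susceptible cluster 1. The states thus overlapped, with cluster 3 above primed cluster 2 (intervals 48.1 to 58.7 and 40.5 to 51.1 CPM, which overlap). By state AXL was at 76.2 against 24.2 CPM (ratio 3.15) and was detected in 92.1% against 63.5% of cells. GAS6 was at 11.3 against 6.01 CPM (ratio 1.89), with cluster 3 at 10.2 CPM, just below primed clusters 0 and 2 (11.3 and 11.8 CPM) and with an interval that overlapped both. TYRO3, lower in the primed WM989 cells of the first experiment, stood at 36.1 CPM (primed) against 29.1 CPM in WM983B. MERTK was at 1.23 against 1.73 CPM, resting on 60 and 93 UMIs, and PROS1 at 28.4 against 31.8 CPM. WM983B was 1 library, so none of these values has a replicate check.

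The share of cells with UMIs of both AXL and GAS6 differed between the states and between the experiments. In the first experiment 29.5% of the primed cells held UMIs of both AXL and GAS6, against 0.206% in the other state. The share was 42.4% against 24.2% in WM983B and 3.43% against 0.0529% in the treatment experiment, where cells were far shallower. Among primed cells of the first experiment, GAS6 was at 11.6 CPM in the 1790 cells with an AXL UMI and 7.50 CPM in the 1053 without, and PROS1 at 17.1 and 21.0 CPM. Cells with an AXL UMI were deeper (median 72374 against 43121 UMIs), and the part of depth in these differences was not tested.

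In the treatment experiment the AXL level again peaked in the primed clusters, but not in those alone. It was 42.9 CPM in cluster 4, 18.3 CPM in cluster 10, 5.99 CPM in drug-susceptible cluster 3, 3.46 CPM in cluster 12 and 1.64 CPM in cluster 7, and 0.111 to 0.474 CPM in the other 8. Cluster 12 rested on 7 AXL UMIs and its interval (1.39 to 7.13 CPM) overlapped those of clusters 3 and 7. GAS6 had its highest levels in clusters 4, 10 and 3, at 8.62, 2.72 and 1.41 CPM. PROS1 separated the primed clusters from each other, with 7.997 CPM in cluster 4 and 22.9 CPM in cluster 10. In the Control libraries it was higher in primed cells, at 26.1 and 23.3 CPM (35 and 58 UMIs) against 16.6 and 17.5 CPM in drug-susceptible cells. Under TGFB1 it was lower, at 8.65 and 8.14 against 16.5 and 17.5 CPM. The libraries pointed both ways under TGFBRi (18.0 and 24.5 against 19.5 and 18.5 CPM) and PI3Ki (31.5 and 11.4 against 12.1 and 12.6 CPM, on 9 and 11 primed UMIs). TYRO3 differed less clearly here than in the first experiment. It was at 11.2 and 11.3 CPM in primed against 14.3 and 12.3 CPM in drug-susceptible cells of the Control libraries, at 6.96 and 7.56 against 13.3 and 13.6 CPM under TGFB1 and at 11.999 and 12.2 against 13.3 and 13.04 CPM under TGFBRi, and under PI3Ki (14.02 and 5.19 against 13.54 and 12.4 CPM) the libraries pointed both ways. The primed TYRO3 values rested on 15 and 28 UMIs in Control and on only 4 and 5 under PI3Ki. Cluster 4 held 3254 cells of the TGFB1 libraries, 11 Control cells and no TGFBRi cell, whereas cluster 10 held 248 Control, 389 TGFBRi, 90 PI3Ki and 80 TGFB1 cells.

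To ask how each treatment moved the TAM system, UMIs were summed per library and tested with edgeR's quasi-likelihood test with the replicate as a block, with Benjamini-Hochberg adjustment over all genes. Under TGFB1, 4 of the 5 members passed an adjusted p of 0.05, where 29% of all 18389 genes did. AXL was at 0.551 and 1.48 CPM in the Control libraries (r1, r2) and 11.8 and 14.8 CPM in the TGFB1 libraries. GAS6 was at 0.461 and 0.548 CPM in Control and 3.35 and 3.02 CPM under TGFB1. For both genes each TGFB1 library was several times above each Control library. AXL rose by 3.72 ± 0.16 (log2 fold change ± SE, n = 2 against 2, edgeR adjusted p = 3.2e-14) and GAS6 by 2.64 ± 0.18 (1.2e-10). The antisense gene GAS6-AS1 and the divergent transcript GAS6-DT, which starts beside the GAS6 start, rose too, by 2.70 ± 0.42 and 3.10 ± 0.61 on the log2 scale (edgeR adjusted p = 3.1e-05 and 4.0e-04), on 5 and 8 UMIs in Control and 44 and 46 under TGFB1 for GAS6-AS1 and on only 1 and 3 UMIs in Control and 20 and 18 under TGFB1 for GAS6-DT. In these bulk sums, more cells of the primed state and more RNA per cell cannot be told apart.

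The other receptors and PROS1 moved little under TGFB1. MERTK was at 5.69 and 5.81 CPM in Control and 4.54 and 5.05 CPM under TGFB1, a fall of 0.27 ± 0.10 on the log2 scale (edgeR adjusted p = 0.039) that did not pass with DESeq2 (adjusted p = 0.161). PROS1 was at 16.8 and 17.7 CPM in Control and 14.5 and 15.03 CPM under TGFB1, and fell by 0.24 ± 0.07 (log2, edgeR adjusted p = 0.013). Both TGFB1 libraries were below both Control libraries for these 2 genes. Without Control r1, Control r2 or TGFB1 r1, in turn, neither MERTK (adjusted p = 0.082 to 0.401) nor PROS1 (0.069 to 0.137) passed, and without TGFB1 r2 PROS1 did not (0.089). TYRO3 was at 14.2 and 12.3 CPM in Control and 11.7 and 12.04 CPM under TGFB1, with a log2 difference of -0.17 (95% interval -0.33 to -0.011, edgeR adjusted p = 0.105).

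**Figure D2:**
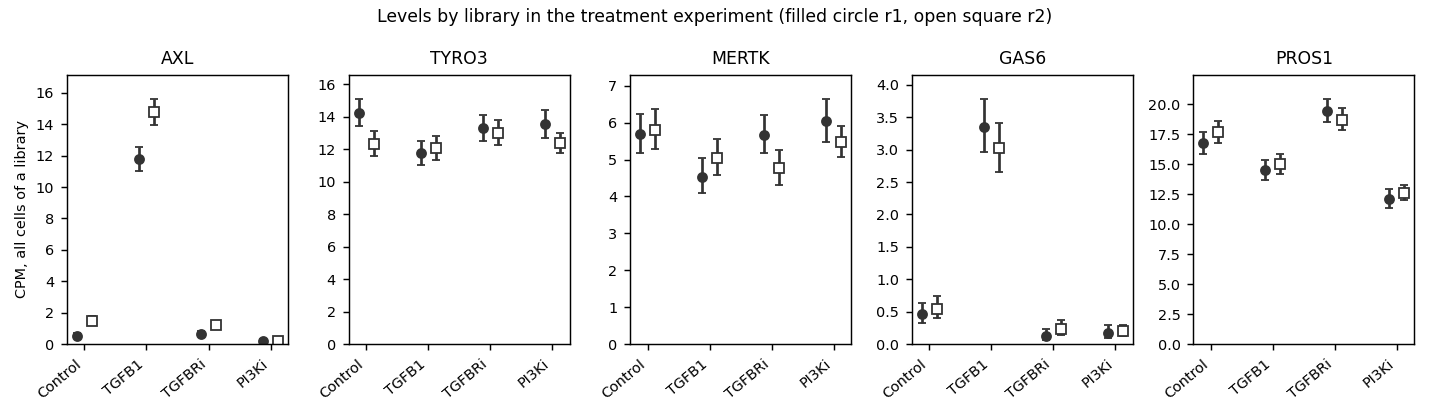
Level of each member (CPM of all cells of a library) in the 8 libraries of the treatment experiment, by treatment, with 95% exact Poisson intervals. AXL and GAS6 stand highest in both TGFB1 libraries, and PROS1 lowest in both PI3Ki libraries.

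The TGFB receptor inhibitor changed 1 of the 5 members, where 2.53% of all genes passed. GAS6 was at 0.133 and 0.240 CPM under TGFBRi, both below the Control libraries, and fell by 1.40 ± 0.30 on the log2 scale (edgeR adjusted p = 0.011). This call rested on Control r2 and TGFBRi r1, without which the adjusted p was 0.144 and 0.090. AXL was at 0.654 and 1.22 CPM under TGFBRi, within the range of the Control libraries, with a log2 difference of -0.09 (95% interval -0.55 to 0.37, adjusted p = 0.923). TYRO3 (13.3 and 13.01 CPM), MERTK (5.67 and 4.77 CPM) and PROS1 (19.5 and 18.7 CPM) did not pass under TGFBRi, although both PROS1 values were above both Control values.

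The PI3K inhibitor lowered 3 of the 5 members, where 12.7% of all genes passed in either direction. AXL was at 0.185 and 0.221 CPM under PI3Ki, GAS6 at 0.171 and 0.204 CPM and PROS1 at 12.1 and 12.6 CPM. In each case both PI3Ki libraries lay below both Control libraries. AXL fell by 2.23 ± 0.30 (log2, edgeR adjusted p = 2.3e-05), GAS6 by 1.29 ± 0.30 (0.0052) and PROS1 by 0.38 ± 0.07 (0.0010). The GAS6 call was lost without Control r2, PI3Ki r1 or PI3Ki r2 (adjusted p = 0.050 to 0.077) and the PROS1 call without PI3Ki r1 (0.051). TYRO3 (13.54 and 12.36 CPM) and MERTK (6.04 and 5.49 CPM) did not pass.

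The share of primed cells also differed between the libraries. Primed cells made up 2.26% and 4.47% of the Control libraries, 29.1% and 31.3% of the TGFB1 libraries, 2.26% and 4.32% of the TGFBRi libraries, and 0.647% and 1.21% of the PI3Ki libraries, where they numbered only 25 and 70. Of the AXL UMIs, 62.8% and 60.5% came from primed cells in Control and 78.2% and 83.8% under TGFB1. Their cluster differed, since cluster 10 gave 55.8% and 52.9% of AXL UMIs in Control and cluster 4 gave 77.7% and 83.5% under TGFB1. Of the GAS6 UMIs, 25.0% and 22.7% came from primed cells in Control and 67.5% and 69.9% under TGFB1. Each state was therefore also tested on its own.

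Within drug-susceptible cells TGFB1 still raised AXL and GAS6, and 2 of 5 members passed where 14.9% of 17914 genes did. AXL was at 0.208 and 0.605 CPM in Control and 3.43 and 3.25 CPM under TGFB1, and GAS6 at 0.352 and 0.437 CPM in Control and 1.45 and 1.23 CPM under TGFB1. The groups did not overlap for either gene. AXL rose by 3.03 ± 0.23 (log2, edgeR adjusted p = 7.3e-10) and GAS6 by 1.75 ± 0.23 (5.2e-06). PROS1, which fell in the sums over all cells, was at 16.6 and 17.5 CPM in Control and 16.5 and 17.5 CPM under TGFB1 (log2 difference -0.02, 95% interval -0.17 to 0.13).

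Much of the AXL of drug-susceptible cells under TGFB1 lay in cluster 3, which held 2182 and 1619 cells of the TGFB1 libraries and 56 and 59 of the Control libraries. AXL was at 5.57 and 6.14 CPM there under TGFB1 and at 3.48 and 10.8 CPM in Control, on 3 and 11 UMIs, so that the Control values lay on both sides of the TGFB1 values. With cluster 3 left out, a choice made after seeing the data, AXL still rose by 2.17 ± 0.27 and GAS6 by 1.71 ± 0.25 on the log2 scale (edgeR adjusted p = 2.0e-06 and 2.9e-05). Free RNA from primed cells would add UMIs to drug-susceptible ones. The drug-susceptible level as a percent of the primed level of the same library was 1.04% and 2.09% for AXL in Control and 9.36% and 6.93% under TGFB1, 5.24% and 10.9% and then 16.2% and 15.4% for GAS6, and 0.511% and 2.35% and then 14.3% and 15.1% for NGFR. For NGFR the level in primed cells itself differed, at 79.0 and 118 CPM in Control and 5.27 and 14.3 CPM under TGFB1. The percents of other primed markers did not rise, with 11.1% and 16.9% and then 10.9% and 10.4% for EGFR, and 16.6% and 25.9% and then 15.3% and 18.7% for NT5E. The part of free RNA was not tested.

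Under the inhibitors, drug-susceptible cells showed 1 called member with TGFBRi, where 2.81% of genes passed, and 2 with PI3Ki, where 12.1% passed. GAS6 was at 0.111 and 0.190 CPM under TGFBRi, on 9 and 16 UMIs, and at 0.172 and 0.189 CPM under PI3Ki, on 12 and 23 UMIs, all below the Control values. It fell by 1.36 ± 0.34 and 1.01 ± 0.32 on the log2 scale (edgeR adjusted p = 0.029 and 0.039). PROS1 was at 12.1 and 12.6 CPM under PI3Ki and fell by 0.37 ± 0.07 (log2, edgeR adjusted p = 0.0013). AXL was at 0.157 and 0.198 CPM under PI3Ki, below both Control libraries, with a log2 difference of -1.07 ± 0.37 that did not pass (edgeR adjusted p = 0.062). That value hung on Control r2, the higher Control library, since without it the difference was -0.13. The GAS6 call under TGFBRi was lost without Control r2 or TGFBRi r1 (adjusted p = 0.327 and 0.153), that under PI3Ki without any of the 4 libraries compared (0.054 to 0.341), and the PROS1 call without PI3Ki r1 (0.066).

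In primed cells AXL and PROS1 passed under TGFB1, which is 2 of 5 members, where 13.3% of 10930 genes did. AXL was at 20.1 and 29.0 CPM in Control and 36.6 and 46.9 CPM under TGFB1, and PROS1 at 26.1 and 23.3 CPM in Control and 8.65 and 8.14 CPM under TGFB1. The groups were apart for both genes, in opposite directions. AXL rose by 0.83 ± 0.18 (log2, edgeR adjusted p = 5.5e-04; 0.058 with DESeq2) and PROS1 fell by 1.46 ± 0.23 (6.9e-06). GAS6 was at 6.71 and 4.02 CPM in Control, on 9 and 10 UMIs, and 8.997 and 8.007 CPM under TGFB1, a log2 difference of 0.82 (95% interval 0.10 to 1.54, edgeR adjusted p = 0.136).

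These primed cells were not of the same clusters, being mostly cluster 10 in Control and cluster 4 under TGFB1. Inside cluster 10, AXL was at 19.3 and 26.4 CPM in Control (24 and 63 UMIs) and 14.03 and 4.87 CPM under TGFB1 (5 and 3 UMIs). PROS1 in cluster 10 was at 28.2 and 23.9 CPM in Control and 33.7 and 17.9 CPM under TGFB1. Neither the AXL rise nor the PROS1 fall was thus seen inside cluster 10, where 29 and 51 TGFB1 cells remained. In cluster 4 the 5 and 6 Control cells gave AXL at 30.1 and 94.6 CPM, on 3 and 9 UMIs, and the TGFB1 cells 37.0 and 48.1 CPM.

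**Figure D3:**
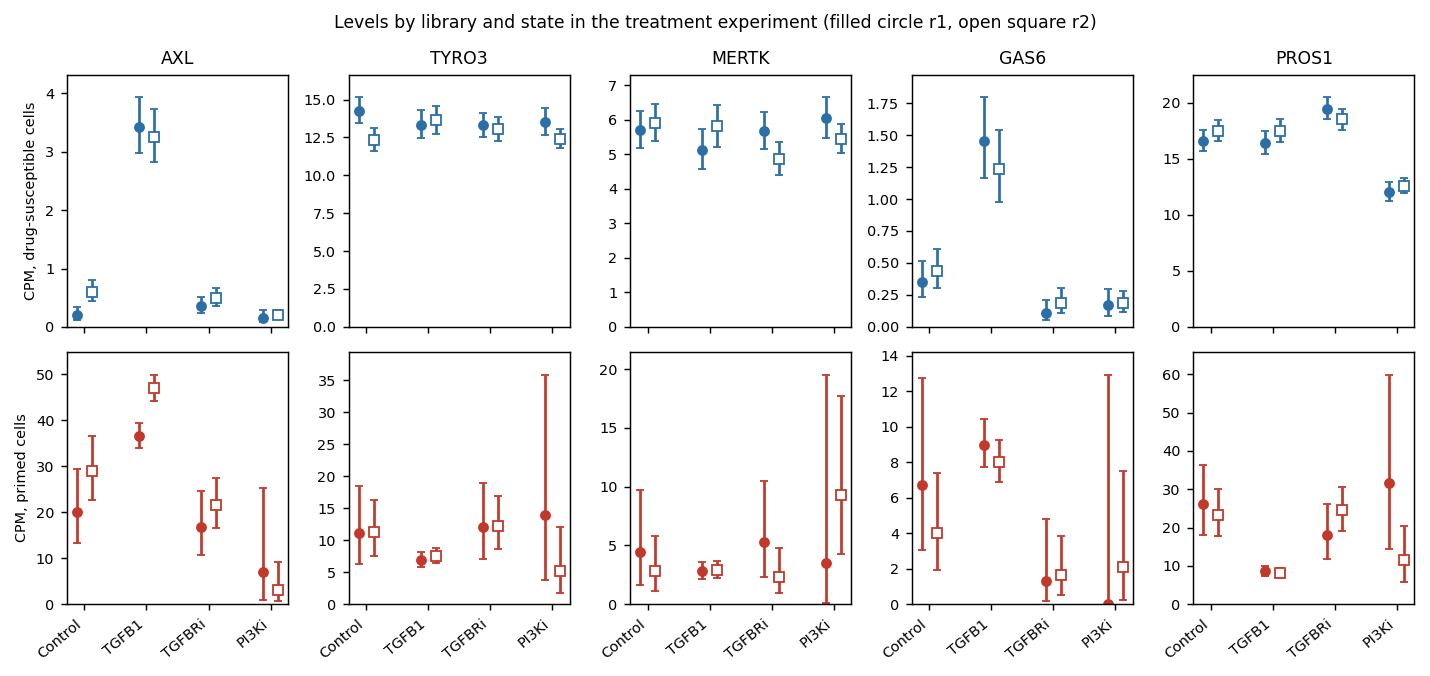
Level of each member (CPM) in drug-susceptible (upper panels, blue) and primed cells (lower panels, red) of the 8 libraries, with 95% exact Poisson intervals and a separate axis from 0 in each panel. AXL and GAS6 rise under TGFB1 in drug-susceptible cells, and in primed cells PROS1 is lower in both TGFB1 libraries than in both Control libraries.

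The PI3K inhibitor lowered AXL inside primed cells as well, the 1 of 5 members that passed where 1.78% of genes did. AXL was at 7.01 and 3.11 CPM under PI3Ki, both below the Control libraries, and fell by 2.75 ± 0.50 (log2, edgeR adjusted p = 6.0e-04). Only 2 and 3 AXL UMIs stood behind those values, and the call was lost without PI3Ki r2 (adjusted p = 0.413) and with DESeq2. Under TGFBRi none of the 5 members passed in primed cells, where 0.375% of genes did. AXL was at 16.7 and 21.5 CPM there, overlapping the Control libraries, with a log2 difference of -0.37 (95% interval -0.84 to 0.098).

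A state by treatment term in 1 edgeR model, added after the separate fits were seen, compared the TGFB1 difference between the states. The states were called after treatment from these same counts. Primed cells were mostly of different clusters in Control and under TGFB1, as given above, so the term compares unlike cells. The cluster and the treatment cannot be told apart in it. The AXL effect was smaller in primed than in drug-susceptible cells by 2.06 ± 0.29 on the log2 scale (edgeR adjusted p = 1.3e-10), and that of PROS1 was more negative by 1.35 ± 0.21 (6.1e-09), so that 2 of 5 members passed where 9.98% of genes did. The GAS6 difference of -0.81 ± 0.49 did not pass (adjusted p = 0.372). The PI3Ki effect on AXL was not shown to differ between the states (-1.61 ± 0.72, adjusted p = 0.490).

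Of 51 other genes of the TAM pathway, 47 were tested in the sums over all cells. Under TGFB1, 14 rose and 7 fell, which is 44.7% of the list beside 29% of all genes, with a median log2 change of -0.02 beside 0.01 over all genes tested. Among 9 other phosphatidylserine bridges and engulfment genes 3 rose and none fell, namely the bridging protein MFGE8 (53.3 and 51.1 CPM in Control, 117 and 91.2 CPM under TGFB1) and the integrin subunits ITGB3 (17.0 and 24.6, then 34.4 and 42.0 CPM) and ITGB5 (14.2 and 15.8, then 21.3 and 22.7 CPM). Of 4 ligand maturation genes FURIN, a proprotein convertase, and VKORC1, which recycles vitamin K, rose, FURIN from 12.7 and 13.04 to 22.98 and 22.8 CPM. The groups did not overlap for any of the genes whose values are given. Those genes were picked by their calls in the same libraries, so the lack of overlap adds no support. Of 9 factors reported to act on AXL, FOSL1, HIF1A, JUN and WWTR1 rose and MITF fell, from 323 and 366 to 232 and 275 CPM. Among 16 signalling partners and feedback genes FYN, SOCS1, SOCS3 and SRC rose, and PIK3CB and PIK3R1 were among those that fell. ANO6, a scramblase that exposes phosphatidylserine, rose while the flippase ATP11A, which returns it inside, fell, and LGALS3, a proposed ligand, fell.

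Fewer genes of the list passed with the inhibitors. PI3Ki raised 2 and lowered 6 of the 47 genes, which is 17.0% beside 12.7% of all genes, with ITGB3 at 9.89 and 12.5 CPM, ITGB5 at 9.57 and 9.28 CPM and FOSL1, an AP-1 subunit, at 36.2 and 49.9 CPM. Each of these was below both Control libraries and passed (log2 changes of -0.79, -0.57 and -0.52, edgeR adjusted p = 1.7e-06, 1.5e-05 and 3.4e-04). MFGE8 rose (0.33 on the log2 scale) under PI3Ki. Under TGFBRi only SOCS3, a feedback inhibitor of cytokine signalling, fell, which is 2.13% of the list beside 2.53% of all genes. In drug-susceptible cells 9 rose and 2 fell under TGFB1 (23.4% beside 14.9% of all genes), 2 rose and 6 fell under PI3Ki (17.0% beside 12.1%), and 2 fell under TGFBRi (4.26% beside 2.81%). In primed cells, where 42 were tested, 4 rose and 8 fell under TGFB1 (28.6% beside 13.3%), none passed under TGFBRi (beside 0.375%) and ITGB3 and VKORC1 fell under PI3Ki (4.76% beside 1.78%). FURIN and ITGAV rose in TGFB1-treated primed cells (log2 changes of 1.13 and 0.94), while FOSL2 and MITF (both -0.91) and ITGB5 (-0.83) fell. Of the 9 factors reported to act on AXL none rose in primed cells and 4 fell, FOSL2 and MITF with JUN and WWTR1, so that JUN and WWTR1, which rose in the sums over all cells, fell there (log2 changes of -0.60 and -0.42, edgeR adjusted p = 0.0076 and 0.013).

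Accessible chromatin was then read at the member loci, over each gene and 10 kb to either side. Of 152014 consensus regions (called in at least 3 of 12 libraries), 46 lay at the members, being 5 at AXL, 7 at TYRO3, 14 at MERTK, 11 at GAS6 and 9 at PROS1. Of these 46, 23 were called in all 12 libraries, beside 51.5% of all regions, and only such regions were tested, by limma on the log2 fold enrichment of their peaks. A peak's fold enrichment is its height over the local background, and the depth behind it is not known from the files. Against marker-negative cells, 4 member regions passed in EGFR/NGFR-high cells, where 11.2% of 78272 regions did, 3 in EGFR-high cells (8%) and 3 in NGFR-high cells (10.6%), and 2 passed between EGFR-high and NGFR-high cells (2.8%). EGFR-high libraries were lower over all regions, by a median log2 of -0.16 against marker-negative and -0.20 against NGFR-high cells, and the differences are to be read beside that shift.

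At AXL the 2 tested regions inside the gene differed between sorts. The region at the internal start (chr19:41225392-41227291) had fold enrichments of 8.06, 7.07 and 12.6 in marker-negative cells, 20.5, 16.5 and 15.7 in EGFR-high cells, 22.3, 19.2 and 16.9 in NGFR-high cells and 25.6, 15.6 and 15.9 in EGFR/NGFR-high cells. All 9 marker-high libraries were above all 3 marker-negative ones. The log2 differences were 0.96 ± 0.24, 1.11 ± 0.24 and 1.05 ± 0.24 (limma adjusted p = 0.022, 0.0064 and 0.0082). Its EGFR-high call was lost without EGFR-high 1, marker-negative 1 or marker-negative 2 (adjusted p = 0.077 to 0.099), and the EGFR/NGFR-high call without EGFR/NGFR-high 1 (0.052). The sequence of its centre, given above, is the one with an AP-1, a TEAD and 4 SP1 matches.

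The region in the AXL intron, 3.2 kb after the gene start (chr19:41222142-41222648), set NGFR-high cells apart. It had 6.72, 6.60 and 6.29 in marker-negative cells, 6.40, 5.67 and 7.34 in EGFR-high cells, 19.9, 11.4 and 10.8 in NGFR-high cells and 12.2, 10.4 and 9.92 in EGFR/NGFR-high cells. EGFR-high cells overlapped the marker-negative ones, and the other 2 sorts lay above both. It was higher in NGFR-high than in marker-negative cells by 1.04 ± 0.21 and lower in EGFR-high than in NGFR-high cells by 1.07 ± 0.21 on the log2 scale (limma adjusted p = 0.0048 and 0.018). The EGFR-high to NGFR-high call was lost without EGFR-high 1 or NGFR-high 1 (adjusted p = 0.054 and 0.083). In EGFR/NGFR-high cells the rise of 0.72 ± 0.21 (0.035) was lost when any 1 of the 6 libraries compared was left out (0.051 to 0.127). No consensus region covered the AXL gene start, and a region 1.2 kb after it and another 4.4 kb after it were each called in 2 NGFR-high and 2 EGFR/NGFR-high libraries and in no other. The share of all consensus regions with that pattern was not counted, so it is given as a description only. The region at 1.2 kb (chr19:41220282-41220643) lies over an exon and covers another annotated AXL transcript start, and it was not tested. A region beyond the end of AXL, with fold enrichments near those of strong promoters, covered the start of HNRNPUL1 and did not pass in any comparison.

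**Figure D4:**
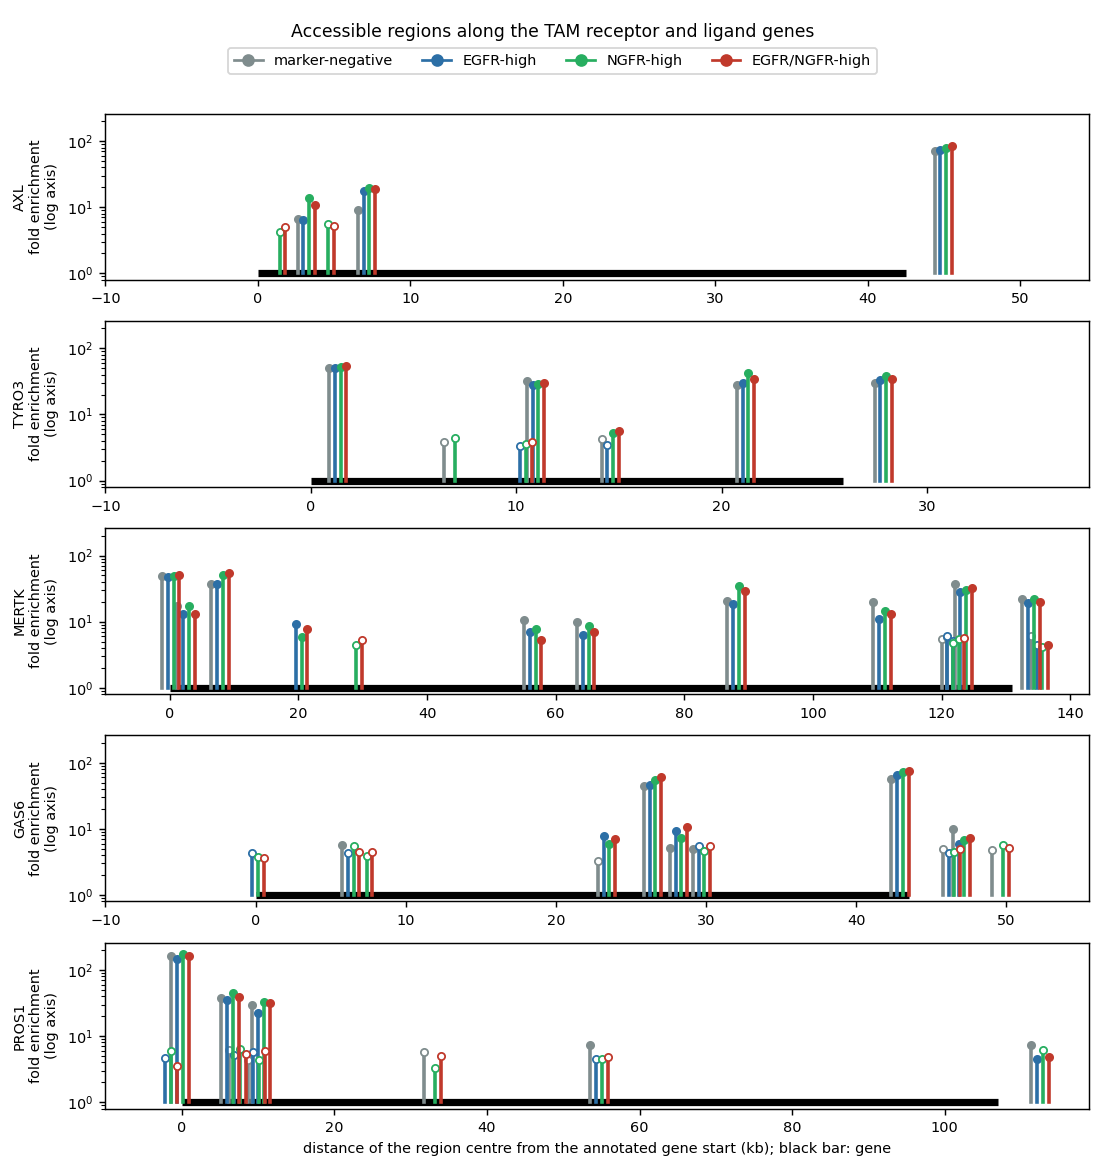
Mean fold enrichment (log axis) of each consensus region by its distance in kb from the gene start, for the 5 members; the 4 sorts are set slightly apart sideways so that they can be seen, and open circles are regions called in fewer than 3 libraries of that sort. AXL has no region over its gene start, and its regions 1.2 and 7.1 kb on cover later annotated starts, while TYRO3 and MERTK have a strong one in all 4 sorts.

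At GAS6, a region inside the gene (chr13:113835538-113836271), which covers the start of a retained-intron transcript, had 4.03, 6.13 and 5.32 in marker-negative cells and 12.2, 11.3 and 8.44 in EGFR/NGFR-high cells. It had 10.7, 8.51 and 8.81 in EGFR-high cells and 8.35, 6.56 and 6.58 in NGFR-high cells. Every marker-high library was above every marker-negative one. It was higher in EGFR/NGFR-high cells by 1.05 ± 0.20 and in EGFR-high cells by 0.87 ± 0.20 on the log2 scale (limma adjusted p = 0.0028 and 0.017), the second being lost without EGFR-high 1 or marker-negative 1 (0.082 and 0.078). The NGFR-high difference of 0.48 did not pass (limma adjusted p = 0.143). The GAS6 start itself was covered by a region called in only 3 of 12 libraries, so it was not tested.

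MERTK, with the most regions, had changes in both directions. A region 56.4 kb into the gene (chr2:111954712-111955347) had 11.6, 8.01 and 12.6 in marker-negative and 6.25, 5.67 and 3.97 in EGFR/NGFR-high cells, without overlap, with 4.89 to 9.18 in the other 2 sorts, and was lower in EGFR/NGFR-high cells by 1.02 ± 0.24 (log2, limma adjusted p = 0.012). That call was lost without EGFR/NGFR-high 3 or marker-negative 3 (0.056 and 0.053). A region 110.7 kb into the gene (chr2:112008974-112009650) had 19.7, 22.2 and 17.4 in marker-negative and 9.82, 9.93 and 13.7 in EGFR-high cells, again apart, with 10.9 to 17.4 in the other 2 sorts, and was lower in EGFR-high cells by 0.84 ± 0.21 (log2, limma adjusted p = 0.024). That call was lost without EGFR-high 1, EGFR-high 2, marker-negative 1 or marker-negative 2 (0.064 to 0.102). Between them, 88.0 kb into the gene (chr2:111986128-111987114), a region had 20.6, 25.0 and 15.5 in marker-negative, 14.1, 18.0 and 23.005 in EGFR-high, 38.2, 33.7 and 33.9 in NGFR-high and 38.1, 21.3 and 27.3 in EGFR/NGFR-high cells. NGFR-high cells stood above marker-negative and EGFR-high cells, by 0.82 ± 0.24 on the log2 scale against marker-negative cells (limma adjusted p = 0.035), and EGFR-high cells were lower than NGFR-high cells by 0.97 ± 0.24 (0.038). The first of these calls was lost without marker-negative 1, marker-negative 3 or any NGFR-high library (0.059 to 0.145), and the second without any of the 5 libraries other than EGFR-high 3 (0.072 to 0.138).

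The MERTK intron region whose centre is printed above (chr2:111918382-111918901) was called in all 9 marker-high libraries and in none of the 3 marker-negative ones. Its fold enrichments were 14.9, 7.09 and 5.38 in EGFR-high, 8.35, 5.69 and 3.76 in NGFR-high and 9.82, 4.25 and 8.93 in EGFR/NGFR-high cells. Among all consensus regions 1.65% were called in at least 8 of the 9 marker-high libraries and in no marker-negative one, and 1 of the 46 member regions was. It was not tested, having no value in marker-negative cells.

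**Figure D5:**
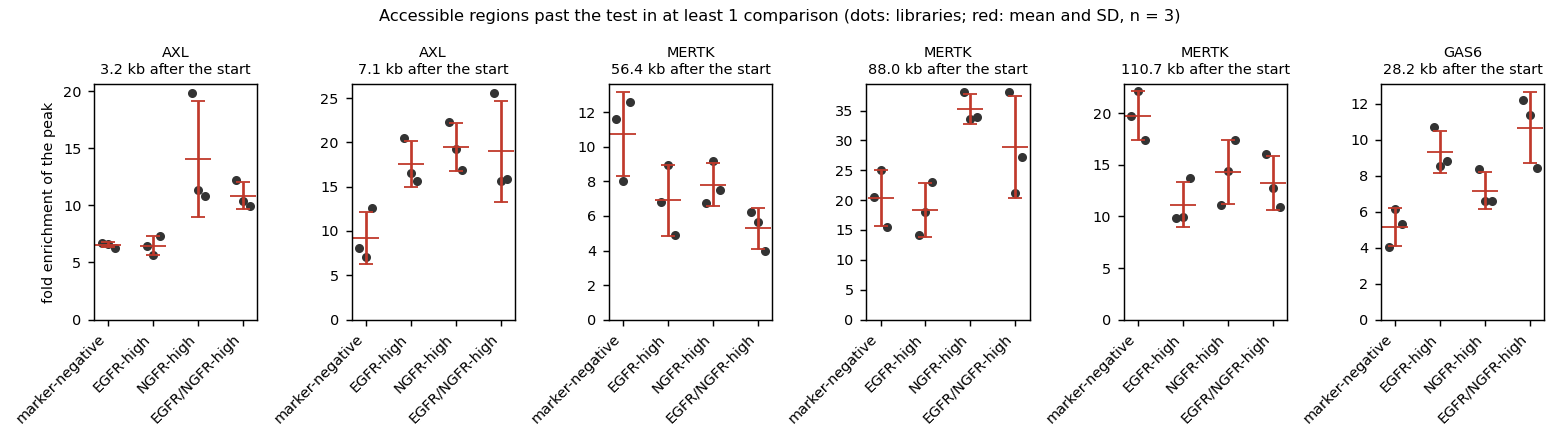
Fold enrichment in each library (dots) with mean and SD (red, n = 3) for the 6 member regions past the test in at least 1 comparison, by sort, each axis starting at 0. The AXL and GAS6 regions are higher in marker-high cells, apart from the AXL intron region in EGFR-high cells, and 2 of the 3 MERTK regions are lower.

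TYRO3 and PROS1 showed no region past the test in these comparisons. The region over the TYRO3 start had fold enrichments of 43.5 to 60.04 over the 12 libraries, and that over the MERTK start 43.2 to 56.8, with all sorts overlapping.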

How the data were processed

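UMI counts and cluster metadata were used as deposited by the authors, who made the counts with Cell Ranger (version not given in the sources used here) on hg38, filtered cells by genes detected (high values as likely doublets) and mitochondrial share, and clustered with Seurat. No further doublet caller was run. ATAC-seq peaks were the authors' MACS2 2.1.1.20160309 calls per library, after Bowtie2 2.3.4.1, SAMtools 1.1 and duplicate removal, and the deposited fold enrichment (a ratio) and −log10 q values were read from them. Consensus regions were rebuilt here as merged peaks called in at least 3 of 12 libraries.

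Counts were summed per library, with states as given in the metadata. The sums were fitted with edgeR 4.0.16 (R 4.3.3, TMM, replicate plus treatment, all 8 libraries) and, as an alternative, DESeq2 1.42.0. Regions called in all 12 libraries were fitted with limma 3.58.1 on log2 fold enrichment, and adjusted p-values below 0.05 were called. Levels are CPM with 95% exact Poisson intervals, and shares of cells were also thinned to 10000 UMIs per cell in the first experiment, 30000 in WM983B and 5000 in the treatment experiment, which left out 33 cells of the last and none of the others. Fits were tested on simulated data. Total UMIs per treatment library ran from 70239657 to 122420544, and the samples numbered 22.

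Same-numbered libraries of the treatment experiment deviated together (r = 0.256 to 0.365 over 6 pairs and 18389 genes), and per the methods those of a replicate came from the same starting well, so the block was kept; the cause of the correlation was not tested. With the block, shifts between r1 and r2 common to all treatments are removed. The p-values measure how much the treatment differences varied between the 2 replicates, pooled over all treatments. Replicates r1 and r2 are those of the metadata. The sample labels call 1 set of 4 treatment libraries Mix and the other Primed, the methods describe parallel replicates, and which set is r1 was not settled. The 5 members and the gene lists were chosen with earlier results of these data known. The text names the 5 members in every comparison, at most 8 called genes of a pathway list of 51 per comparison (largest change, mean of at least 10 CPM), with group counts for the rest, whose genes are named beside small counts after their calls were seen, and for each member the 5 genes most like it over the 28 clusters. Other genes at a locus are named where a region or transcript needs them, and markers of other cell types once. Some items are not reported here. Alternatives are given in the closing section.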

Additional observations from a re-analysis of the deposited data

Results flagged for a closer look

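The effect of TGFB1 on AXL and on PROS1 differed between the states in a test of the difference itself. In the edgeR model with a state by treatment term, the AXL effect was lower in primed than in drug-susceptible cells by a log2 of -2.06 ± 0.29 (adjusted p = 1.3e-10). AXL moved from 0.208 and 0.605 CPM to 3.43 and 3.25 CPM in drug-susceptible cells and from 20.1 and 29.0 CPM to 36.6 and 46.9 CPM in primed cells, up in 2 of 2 replicates in each state. The primed rise did not pass with DESeq2 (adjusted p = 0.058), and inside cluster 10 AXL was at 19.3 and 26.4 CPM in Control and 14.03 and 4.87 CPM under TGFB1, the last on 5 and 3 UMIs. The drug-susceptible clusters differed too. Of all AXL UMIs of the TGFB1 libraries 78.2% and 83.8% lay in primed cells and 17.7% and 10.9% in cluster 3. That cluster held far more TGFB1 than Control cells, and its Control AXL values lay on both sides of the TGFB1 values. The model kept cluster 3, and with it left out of the separate fit AXL still rose, as given above.

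The PROS1 effect differed by a log2 of -1.35 ± 0.21 (edgeR adjusted p = 6.1e-09). PROS1 stayed between 16.5 and 17.5 CPM in drug-susceptible cells and went from 26.1 and 23.3 CPM to 8.65 and 8.14 CPM in primed cells, down in 2 of 2 replicates. Primed cells were mostly of cluster 10 in Control and of cluster 4 under TGFB1, and inside cluster 10 PROS1 was at 28.2 and 23.9 CPM in Control and 33.7 and 17.9 CPM under TGFB1. The cluster and the treatment cannot be told apart in these primed sums, and the cluster make-up of the drug-susceptible sums differed between Control and TGFB1 as well. Both states of a library come from the same wells. The model, added after the separate fits were seen, had a term for each library, which paired its primed and drug-susceptible sums. The states were called after treatment from these same counts.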

How the results depend on the processing

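Direction held for all called members under every setting tried, and AXL and GAS6 under TGFB1, in all and in drug-susceptible cells, passed in each. With 1 library left out, the number of called members in all cells (4 for TGFB1, 1 for TGFBRi, 3 for PI3Ki) ranged from 2 to 4, 0 to 1 and 1 to 3. In drug-susceptible cells it ranged from 0 to 1 for TGFBRi (1 with all libraries) and 0 to 3 for PI3Ki (2), in primed cells from 0 to 1 for PI3Ki (1), and it stayed at 2 for TGFB1 in each state. Thinning to 5000 UMIs gave 0 for TGFBRi in all and in drug-susceptible cells and 0 for PI3Ki in drug-susceptible cells. DESeq2 gave 0 for TGFBRi and 1 for PI3Ki in drug-susceptible cells, and 1 for TGFB1 and 0 for PI3Ki in primed cells. Without the replicate block, the count was 0 for TGFBRi in all and in drug-susceptible cells and 1 for PI3Ki in drug-susceptible cells (GAS6 in each case), and MERTK under TGFB1 did not pass (adjusted p = 0.11). The AXL difference under TGFBRi in all cells, never called, ran from -0.45 to 0.56 with 1 library left out (0.56 without Control r2, 0.08 without TGFBRi r1). For the regions, setting uncalled regions to 1 left 2 calls in EGFR/NGFR-high, 0 in EGFR-high and 0 between EGFR-high and NGFR-high, a minimum −log10 q of 5 left 2 in EGFR/NGFR-high, and an overlap of 50%, under which 34810 regions remained testable, left 0, 0, 1 (NGFR-high) and 1 (EGFR-high to NGFR-high). With 1 library left out the counts were 2 to 4, 0 to 3, 2 to 4 and 0 to 2. Among the 6 regions called in at least 1 comparison, uncalled differences that turned sign were the MERTK region at 56.4 kb between EGFR-high and NGFR-high (-0.42 to 0.014), and against marker-negative in EGFR-high the AXL intron region (-0.12 to 0.069) and the MERTK region at 88.0 kb (-0.335 to 0.025, 0.0099 without marker-negative 2). Same-numbered sorted libraries correlated by -0.00028 to 0.174, so the numbers were not taken as pairing, and a replicate block raised the calls over all regions from 8748, 6261, 8294 and 2193 to 9969, 7580, 9679 and 3307. The log2 ratio of AXL between the states was 1.65 on CPM in WM983B and 0.89 on thinned shares. In the treatment experiment it was 5.38 on CPM, 5.06 on per-cell means and 4.98 on thinned shares. A ratio of shares of cells is a measure unlike a ratio of CPM, because shares have an upper limit. In WM983B the thinned shares were 78.6% (primed) against 42.5%. The cause of the other changes in this section was not tested beyond the fewer regions or samples of a setting. Few AXL and GAS6 UMIs in the inhibitor libraries limit those calls, and the read depth behind the peaks is not known.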

Other observations

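Pooled over primed cells, AXL was higher in cells assigned to G2M than to G1 in all 3 experiments, at 56.0 against 37.2 CPM in the first experiment, 100.3 against 65.1 CPM in WM983B and 52.5 against 28.01 CPM in the treatment experiment. In WM983B the AXL difference came from primed cluster 0, since AXL in cluster 2 was at 46.6 CPM in G2M and 53.4 CPM in G1. GAS6 differed less, at 10.2 against 10.3, 11.4 against 10.2 and 8.06 against 6.76 CPM. TYRO3 was highest in S phase in all 3, at 15.5, 41.0 and 11.1 CPM, against 8.02, 38.8 and 7.49 CPM in G1. In WM983B the Poisson intervals of S and G1 overlapped (38.0 to 44.3 and 35.8 to 42.0 CPM). The WM989 values pool replicates and treatments whose primed AXL levels differ, as given above. The phases are the deposited calls, G1 cells were shallower (median 54676 against 71070 UMIs in the first experiment), and the part of depth was not tested.

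Over the 28 clusters of the 3 experiments, each centred within its experiment on a log2(CPM + 1) scale, the genes most like AXL among 5772 ranked were CAV1 (Pearson r = 0.976), LOXL2 (0.975), IL11 (0.974), RRAS (0.971) and F2R (0.971). GAS6, too low to be ranked itself, had r = 0.980 with AXL, and the genes most like GAS6 were AXL, HMGA2, MYLK, SYNJ2 and CAV1. TYRO3 and MERTK were also too low to be ranked. TYRO3 had CHL1 (0.901), CSPG4, ERBB3 and PTPRS among the 5 genes most like it and over all clusters ran against AXL (-0.755) and GAS6 (-0.816). In WM983B it did not run against AXL, being at 36.6, 29.1, 33.0 and 28.9 CPM in clusters 0 to 3. AXL was at 80.8, 19.5, 45.6 and 53.2 CPM in those clusters. MERTK was most like SDHB (0.920), SLC39A6, OPA1, FNBP1L and SCO1, and PROS1, most like GPNMB (0.765), CD109, PIEZO2, MAN1B1 and DNASE2, had r = 0.014 with AXL. Clusters share libraries and were built on these genes, so these values are descriptions.

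Drug-susceptible cells of the first experiment with an AXL UMI, 181 of 9688, had NGFR at 12.2 CPM, against 0.834 CPM in those without, and GAS6 at 2.01 against 0.790 CPM. Cells with an AXL UMI were deeper (median 64372 against 52708 UMIs), and both sets pool the replicates, which differ in AXL level. They also pool wells, and drug-susceptible AXL was higher in the wells of each replicate with more primed cells. It was at 0.288 and 0.436 CPM in wells 1 and 2 against 0.123 and 0.113 CPM in wells 3 and 4. In r2 it was at 4.76 and 1.47 CPM in wells 5 and 6 against 0.727 and 0.679 CPM in wells 7 and 8. The part of the wells and of free RNA was not tested.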
